A study of Mus musculus with 6 samples.

Results

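Fatty acid oxidation and its control by PPAR and ERR nuclear receptors were followed through 49 genes in mouse heart. The genes were chosen by function and cover fatty acid uptake, the carnitine shuttle, the beta-oxidation spiral, electron transfer, thioesterases, lipid droplets, further PPAR targets, and the receptors with their coactivators. Every probe set whose platform annotation gives one of these genes and no other was taken, which gave 89 of 45101 probe sets and 47 of the 49 genes. Of these, 45 genes were bright enough to test, among 13634 genes tested in all. Cpt1b, the muscle form of the outer carnitine palmitoyltransferase, was read only by a probe set shared with other genes and was left out. Ucp2 was not analysed here, and Vnn1 and Cidec were dim on all 6 arrays.

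The adult heart draws most of its energy from long-chain fatty acids. These enter the cardiomyocyte through Cd36 and fatty acid transport proteins, are bound by Fabp3, pass into mitochondria as carnitine esters, and are shortened there by repeated rounds of dehydrogenation, hydration, dehydrogenation and thiolysis, with electrons passing through electron transfer flavoprotein to the respiratory chain. PPAR receptors bind fatty acids and pair with retinoid X receptors on DNA, ERR receptors bind related sites, and the Ppargc1 coactivators act with both families.

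The hearts came from 8-week-old mice, 3 labelled DNMTs-Tg (replicates 1, 5 and 6) and 3 labelled wild-type (replicates 1, 4 and 6), with 1 array per mouse. DNMTs-Tg mice carry transgenes for the DNA methyltransferase DNMT3A2 and its cofactor DNMT3L, made by mating females of the germline Cre strain FVB-Tg(Ddx4-cre)1Dcas/J to floxed males, and express them in a broad range of somatic cells for life; they grow slowly and die by 20 weeks. The study asked which heart genes are silenced by the added methyltransferases. Neither the promoter of the transgenes, the strain of the wild-type mice, nor whether these carried Cre is given in the sources used here.

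The log2 signal of Dnmt3l was 12.2 to 12.4 in DNMTs-Tg and 5.17 to 5.48 in wild-type hearts. The labels call 5 mice female and wild-type replicate 6 male, but the Y-linked gene Eif2s3y read 9.41 to 9.52 on 5 arrays, and Xist, the RNA of the inactive X, was high (10.1) only in wild-type replicate 4, so sex-linked RNA differed from the label in 4 mice. DNMTs-Tg replicate 1 stood apart: its log2 signal of macrophage markers had a median 1.36 above the wild-type mean. In bulk heart RNA, fewer cells of a type and less RNA per cell cannot be told apart.

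The members that carry fatty acids through the mitochondrion had lower mean signals in DNMTs-Tg hearts, and none of them passed the test. All 18 measured members from the carnitine shuttle to electron transfer had a mean log2 signal below that of wild-type on their brightest probe sets. Dimmer probe sets of Cpt1a and Hadhb had differences above 0. The median difference of the 18 was -0.47 against 0.0055 over all genes tested. Of those 18, 10 were lower on every DNMTs-Tg array than on any wild-type array, where 17.6% of all genes were, and so were Slc27a1 at the membrane and Plin2, Plin5, Acot13 and Ppargc1b. Fatty acid uptake genes, lipid droplet and lipolysis genes, and the receptors with their coactivators each had differences of both signs. Of genes of the same pathways outside the 49, the carnitine transporter Slc22a5 and the droplet coat gene Plin3 fell and the lipase activator Abhd5 rose. Slc25a20, the mitochondrial carnitine carrier and also outside the 49, had a difference above 0 (0.17, adjusted p = 0.552).

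Over the 45 members, 0 passed limma's moderated test at an adjusted p of 0.05, with Benjamini-Hochberg adjustment over all 13634 genes, where 5.39% of all genes passed. At an unadjusted p of 0.05, 11 members passed, all lower in DNMTs-Tg, which is 24.4% of the members against 26% of all genes. The difference was below 0 in 30 of 45 members, or 66.7%, against 49.2% of all genes. The groups did not overlap in 15 members lower in DNMTs-Tg, or 33.3%, against 17.6% of all genes, and in 2 members higher in DNMTs-Tg, Cd36 and Ppard, against 17.3%. The median difference over the members was -0.19 on the log2 scale, and 44 of the 45 differences were smaller than 1.

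**Figure D1:**
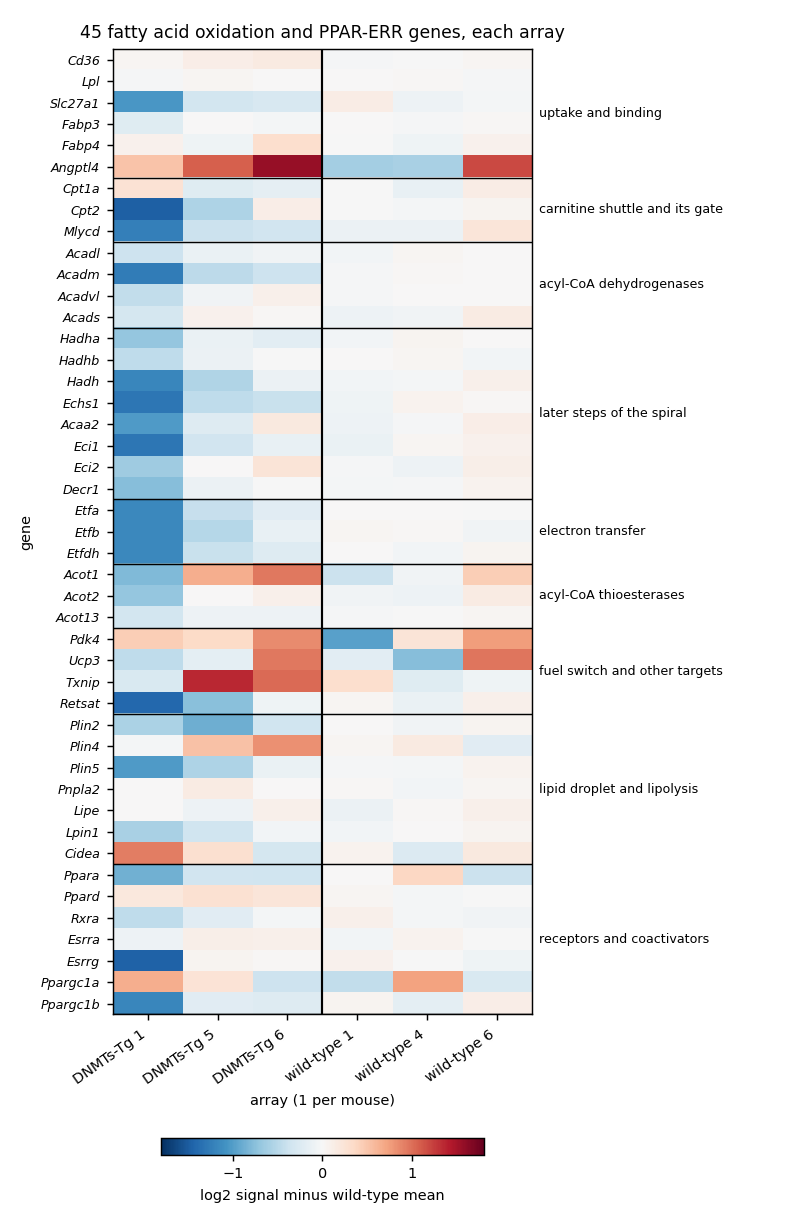
Heat map of the 45 measured members (rows, grouped by role) on the 6 arrays (columns); colour is the log2 signal minus the mean of the 3 wild-type arrays, blue lower and red higher. The column of DNMTs-Tg replicate 1 is the bluest from the carnitine shuttle to electron transfer, where its median is -1.09 against -0.29 and -0.12 in replicates 5 and 6.

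The 3 DNMTs-Tg hearts were far from alike. Replicate 1 was the lowest of the 6 arrays in 31 of 45 members, or 68.9%, against 30.1% of all genes, and in 17 of the 18 genes from the carnitine shuttle to electron transfer. Relative to the wild-type mean, the median log2 signal of the 45 members was -0.56 in replicate 1, -0.10 in replicate 5 and -0.029 in replicate 6, and the wild-type arrays lay between -0.028 and 0.042. The standard deviation among DNMTs-Tg arrays had a median of 0.43 over the members, and that among wild-type arrays 0.077; over all genes these medians were 0.19 and 0.11. It was larger among DNMTs-Tg arrays in 39 of 45 members, or 86.7%, against 71.6% of all genes.

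Without DNMTs-Tg replicate 1, the median difference of the 45 members was -0.058 and that of the 18 mitochondrial oxidation genes -0.21, with 15 of the 18 still below 0. In that comparison of 2 arrays with 3, 5 members passed the adjusted test, against 7.83% of all genes. Acadm, Echs1 and Etfdh were lower, where 4.55% of all genes were, and Txnip and Plin4 higher, where 3.28% were. Without DNMTs-Tg replicate 6 the median over the members was -0.32, and 6 members passed with lower signal (Etfb, Hadh, Lpin1, Plin2, Plin5 and Retsat), against 5.79% of all genes. Without wild-type replicate 4, whose sex-linked RNA was unlike that of the other mice, the median over the members was -0.25 and 0 passed, against 1.19% of all genes. None passed without DNMTs-Tg replicate 5, wild-type replicate 1 or wild-type replicate 6 either, against 1.04%, 0.902% and 1.48% of all genes. With limma's array weights 6 members passed with higher and 13 with lower signal, against 17.1% and 18.3% of all genes. At an adjusted p of 0.10, 1 member passed (Plin2), against 12.1% of all genes, and in the fit of all bright probe sets 0 of the members' 80 passed, against 4.46%.

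Uptake and binding genes were led by some of the brightest probe sets of the array. Slc27a1, a fatty acid transport protein, had log2 signals of 7.59, 8.31 and 8.36 in DNMTs-Tg replicates 1, 5 and 6 and of 8.78, 8.54 and 8.60 in wild-type replicates 1, 4 and 6. Its difference was -0.55 ± 0.22 (SE, n = 3 per group, adjusted p = 0.164), or 68.1% of the wild-type level, with every DNMTs-Tg array below every wild-type array. The fatty acid receptor and transporter Cd36 gave 13.59, 13.68 and 13.72 in DNMTs-Tg and 13.53, 13.55 and 13.59 in wild-type hearts, in the same order of arrays, which is used for all triplets of signals that follow. These groups were apart by a small margin, and the difference was 0.11 (adjusted p = 0.388); another probe set of Cd36 differed the other way, by -0.34 (adjusted p = 0.323 in the fit of all probe sets).

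Angptl4, a secreted inhibitor of lipoprotein lipase and a PPAR target, had the largest difference of the members. Its log2 signals were 7.91, 8.48 and 8.97 in DNMTs-Tg and 6.80, 6.82 and 8.59 in wild-type hearts. Wild-type replicate 6 lay inside the DNMTs-Tg range, and the difference of 1.05 ± 0.51 did not pass (adjusted p = 0.237). On their brightest probe sets, lipoprotein lipase itself (Lpl, 0.0066) and the heart fatty acid binding protein Fabp3 (-0.083) differed little. So did Fabp4 (0.10), the counterpart of Fabp3 in endothelium and fat. Lpl came within 0.27 and Fabp3 within 0.44 log2 units of the brightest value of an array, a range in which array signals respond less to RNA. A second, much dimmer probe set of Fabp3 differed by 0.22 (adjusted p = 0.291 in the fit of all probe sets). On it every DNMTs-Tg array lay above wild-type.

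The carnitine shuttle and its gate had 3 measured genes, all with a difference below 0. Mlycd, which breaks down the malonyl-CoA that blocks entry of fatty acids, gave log2 signals of 8.73, 9.58 and 9.62 in DNMTs-Tg and 9.86, 9.85 and 10.17 in wild-type hearts. The groups did not overlap, and the difference was -0.65 ± 0.25 (adjusted p = 0.159). Cpt2, the inner-membrane carnitine palmitoyltransferase, gave 10.72, 11.63 and 12.31 in DNMTs-Tg against 12.19, 12.15 and 12.23 in wild-type hearts, a difference of -0.63 ± 0.35 (adjusted p = 0.297). The Cpt2 signal was low in replicate 1, intermediate in replicate 5 and above the wild-type arrays in replicate 6, so the groups overlapped. The liver form of the outer enzyme, Cpt1a, gave 8.64, 8.16 and 8.23 in DNMTs-Tg against 8.38, 8.25 and 8.53 in wild-type hearts, with a difference of -0.044 (adjusted p = 0.883) and replicate 1 the highest of all arrays; its other 2 bright probe sets differed by 0.21 and 0.20.

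Of the 4 acyl-CoA dehydrogenases, which open each round of beta-oxidation on chains of a given length, the medium-chain enzyme stood lowest against wild-type. Acadm gave log2 signals of 12.56, 13.35 and 13.45 in DNMTs-Tg and 13.79, 13.84 and 13.82 in wild-type hearts. The wild-type arrays lay close together and every DNMTs-Tg array lay below them; the difference was -0.70 ± 0.22 (95% interval -1.22 to -0.18, adjusted p = 0.11), or 61.6% of wild-type. Without replicate 1 the Acadm difference was -0.42 and passed (adjusted p = 0.00911). Acadl, the long-chain enzyme, gave 13.26, 13.51 and 13.57 in DNMTs-Tg against 13.59, 13.66 and 13.64 in wild-type hearts, a small gap of -0.18 (adjusted p = 0.291) with no overlap. The very-long-chain enzyme Acadvl gave 12.50, 12.88 and 13.03 in DNMTs-Tg against 12.92, 12.95 and 12.95 in wild-type hearts; replicate 6 was above wild-type, and the difference was -0.14 (adjusted p = 0.551). For the short-chain enzyme Acads the difference was -0.072.

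On their brightest probe sets, the 8 genes of the later steps all had differences below 0, and in each of them replicate 1 was the lowest array. Echs1, the short-chain enoyl-CoA hydratase, gave log2 signals of 10.91, 11.75 and 11.80 in DNMTs-Tg and 12.13, 12.26 and 12.22 in wild-type hearts. All DNMTs-Tg arrays were below all wild-type arrays, with a difference of -0.72 ± 0.23 (adjusted p = 0.116) with all arrays and -0.43 (adjusted p = 0.0191) without replicate 1. Hadh, the short-chain hydroxyacyl-CoA dehydrogenase, gave 12.64, 13.28 and 13.70 in DNMTs-Tg against 13.76, 13.78 and 13.90 in wild-type hearts, with a difference of -0.61 ± 0.24 (adjusted p = 0.171). It was read by 3 probe sets, none of which overlapped between groups. Hadha, the alpha subunit of the membrane-bound trifunctional protein, gave 11.86, 12.44 and 12.37 in DNMTs-Tg against 12.51, 12.61 and 12.56 in wild-type hearts, again without overlap, and differed by -0.33 (adjusted p = 0.226). Eci1, an isomerase for unsaturated chains, also did not overlap and differed by -0.60 (adjusted p = 0.228). In all, 4 of the 8 genes were lower on every DNMTs-Tg array, where 17.6% of all genes were. The trifunctional beta subunit Hadhb (-0.19), the thiolase Acaa2 (-0.36), the isomerase Eci2 (-0.13) and the reductase Decr1 (-0.29) overlapped with wild-type. A much dimmer probe set of Hadhb differed by 0.29 (adjusted p = 0.344 in the fit of all probe sets). On another (-0.10, adjusted p = 0.497 in that fit), replicate 1 was the highest of the DNMTs-Tg arrays.

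Electron transfer was the most uniform group. Its 3 genes encode the alpha and beta subunits of electron transfer flavoprotein and the oxidoreductase that receives its electrons. All 3 were lower on every DNMTs-Tg array than on any wild-type array, where 17.6% of all genes were. Etfa gave log2 signals of 12.06, 12.80 and 13.02 in DNMTs-Tg and 13.22, 13.22 and 13.21 in wild-type hearts, a difference of -0.59 ± 0.23 (adjusted p = 0.163). Etfb gave 11.77, 12.42 and 12.81 in DNMTs-Tg against 12.98, 12.95 and 12.88 in wild-type hearts, a difference of -0.60 ± 0.24 (adjusted p = 0.169). Etfdh gave 11.85, 12.60 and 12.76 in DNMTs-Tg against 13.00, 12.95 and 13.05 in wild-type hearts, a difference of -0.60 ± 0.22 (adjusted p = 0.154). The 3 differences were nearly equal, and in each gene replicate 1 was lowest, replicate 5 intermediate and replicate 6 closest to wild-type. Without replicate 1 the differences were -0.31, -0.32 and -0.32, and Etfdh passed (adjusted p = 0.046).

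**Figure D2:**
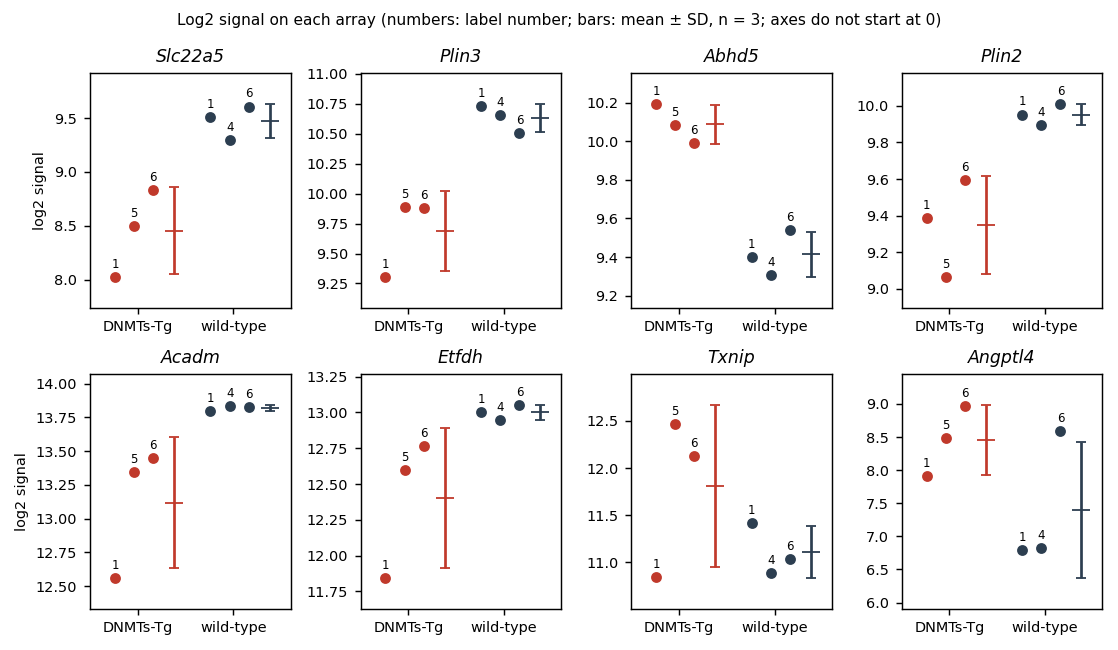
Log2 signal on each array for 8 genes, with the label number beside each point and bars for the mean ± SD (n = 3); the axes do not start at 0. Slc22a5, Plin3, Plin2, Acadm and Etfdh have every DNMTs-Tg array below wild-type and Abhd5 has every one above, while Txnip in replicate 1 (10.84) lies below wild-type and Angptl4 in wild-type replicate 6 (8.59) lies among the DNMTs-Tg arrays.

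Thioesterases release free fatty acids from CoA. Acot13 gave log2 signals of 12.44, 12.68 and 12.67 in DNMTs-Tg and 12.75, 12.75 and 12.80 in wild-type hearts, without overlap and with a difference of -0.17 (adjusted p = 0.292). Acot2, the mitochondrial form, gave 10.73, 11.44 and 11.52 in DNMTs-Tg against 11.37, 11.34 and 11.58 in wild-type hearts, a difference of -0.20 (adjusted p = 0.575). The cytosolic PPAR target Acot1 gave 7.21, 8.67 and 8.97 in DNMTs-Tg against 7.63, 7.96 and 8.45 in wild-type hearts, a difference of 0.27 (adjusted p = 0.739). Acot1 was lowest in replicate 1 and higher than all wild-type arrays in replicates 5 and 6, and near-identical coding sequences of the Acot1 and Acot2 genes make their probe sets uncertain.

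The fuel-switch genes varied among wild-type hearts more than the oxidation enzymes did. Pdk4, the kinase that shuts pyruvate dehydrogenase when fatty acids are burned, gave log2 signals of 12.64, 12.54 and 13.05 in DNMTs-Tg and 11.21, 12.43 and 12.95 in wild-type hearts. Wild-type replicate 1 was far below the other 5 arrays, and the difference of 0.55 ± 0.41 did not pass (adjusted p = 0.428). Txnip, an inhibitor of glucose uptake, gave 10.84, 12.46 and 12.13 in DNMTs-Tg against 11.41, 10.89 and 11.03 in wild-type hearts, a difference of 0.70 ± 0.40 (adjusted p = 0.304). It was higher than every wild-type array in replicates 5 and 6 and lowest of all 6 arrays in replicate 1; without replicate 1 the difference was 1.18 (adjusted p = 0.0128). Retsat, a retinol saturase, gave 7.73, 8.39 and 9.07 in DNMTs-Tg against 9.17, 9.03 and 9.23 in wild-type hearts, a difference of -0.74 ± 0.30 (adjusted p = 0.179), with replicate 6 inside the wild-type range. The uncoupling protein gene Ucp3 differed by 0.10 and was about equally high in replicate 6 of both groups, at 9.45 and 9.46.

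Plin2, a coat protein of lipid droplets and a PPAR target, had the smallest p of the 45 members. It gave log2 signals of 9.39, 9.07 and 9.60 in DNMTs-Tg and 9.95, 9.90 and 10.01 in wild-type hearts. All 3 DNMTs-Tg arrays lay below wild-type, replicate 5 furthest, and the difference was -0.60 ± 0.15 (95% interval -0.95 to -0.26, adjusted p = 0.0607), or 65.9% of wild-type. Without replicate 1 the Plin2 difference was -0.62, nearly the same. Plin5, the droplet coat of oxidative muscle that ties droplets to mitochondria, gave 10.25, 10.71 and 11.15 in DNMTs-Tg against 11.24, 11.23 and 11.34 in wild-type hearts, a difference of -0.57 ± 0.21 (adjusted p = 0.151), again without overlap. Lpin1, a phosphatidate phosphatase and nuclear coactivator, gave 10.52, 10.74 and 11.05 in DNMTs-Tg against 11.05, 11.10 and 11.15 in wild-type hearts, a difference of -0.33 (adjusted p = 0.197), with replicate 6 at the lower edge of wild-type.

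Plin4 ran the other way from Plin2 and Plin5, with a difference of 0.44 ± 0.22 (adjusted p = 0.247), and 0.68 (adjusted p = 0.0347) without replicate 1. The droplet protein Cidea differed by 0.30 with replicate 1 the highest array. The triglyceride lipase Pnpla2 (0.058) and the hormone-sensitive lipase Lipe (0.0046) differed little on their brightest probe sets. A second, dimmer probe set of Pnpla2 gave 6.49, 5.89 and 5.53 in DNMTs-Tg and 5.06, 4.50 and 5.13 in wild-type hearts, without overlap (difference 1.07, adjusted p = 0.0722 in the fit of all probe sets), so the probe sets of that gene gave different values.

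**Figure D3:**
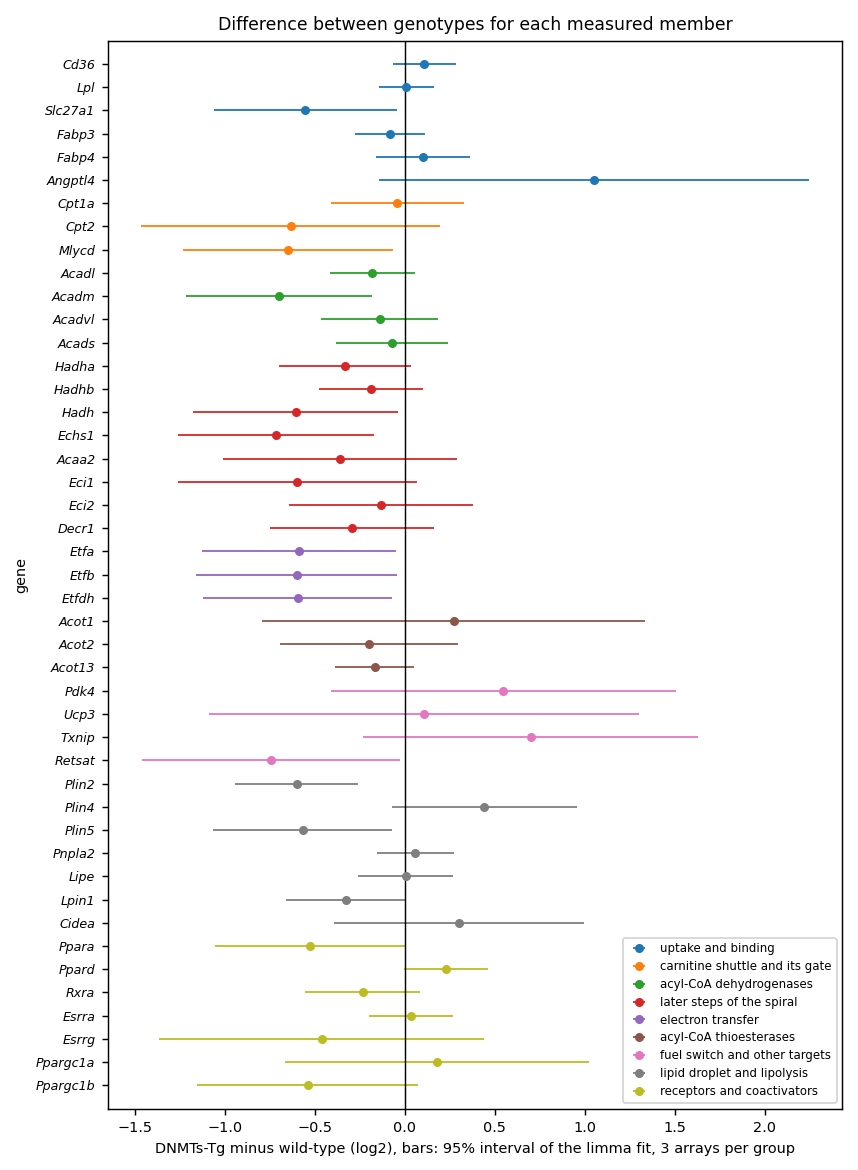
Difference in log2 signal, DNMTs-Tg minus wild-type (points), with its 95% interval from limma (bars), for the 45 measured members grouped by role. From Cpt1a to Etfdh all 18 points lie left of 0, and Angptl4 at 1.05 lies furthest to the right.

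Among the receptors, the values of Ppara and Ppard lay on opposite sides of wild-type. Ppara, the main PPAR of fatty acid oxidation in heart, gave log2 signals of 8.93, 9.45 and 9.44 in DNMTs-Tg and 9.81, 10.17 and 9.42 in wild-type hearts. Wild-type replicate 6 lay inside the DNMTs-Tg range, and the difference was -0.53 ± 0.22 (adjusted p = 0.195). All 3 probe sets of Ppara were below 0, and 1 of them did not overlap, at 8.62, 9.33 and 9.27 in DNMTs-Tg and 9.89, 10.24 and 9.50 in wild-type hearts (difference -0.80, adjusted p = 0.109 in the fit of all probe sets). Ppard, which shares many targets with Ppara, gave 7.30, 7.38 and 7.32 in DNMTs-Tg against 7.14, 7.07 and 7.10 in wild-type hearts, a difference of 0.23 ± 0.10 (adjusted p = 0.203) with every DNMTs-Tg array above wild-type; another probe set of Ppard had a difference of the other sign.

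The coactivator gene Ppargc1b gave log2 signals of 9.29, 10.26 and 10.23 in DNMTs-Tg and 10.52, 10.30 and 10.59 in wild-type hearts. The groups did not overlap, by a narrow margin in replicates 5 and 6, and the difference was -0.54 (adjusted p = 0.236). Its relative Ppargc1a differed by 0.18 (adjusted p = 0.788), with all 5 probe sets above 0, from 0.12 to 0.68. The brightest of them varied widely inside both groups, from 10.39 to 11.40 in DNMTs-Tg and from 10.31 to 11.47 in wild-type hearts. The estrogen-related receptor gene Esrra differed by 0.034, and the retinoid X receptor gene Rxra by -0.24. Another, dimmer probe set differed by 0.27 for Esrra and by 0.19 for Rxra. Esrrg, the other estrogen-related receptor of heart, differed by -0.46, which rested on replicate 1 (8.25): without that array it was 0.035.

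**Figure D4:**
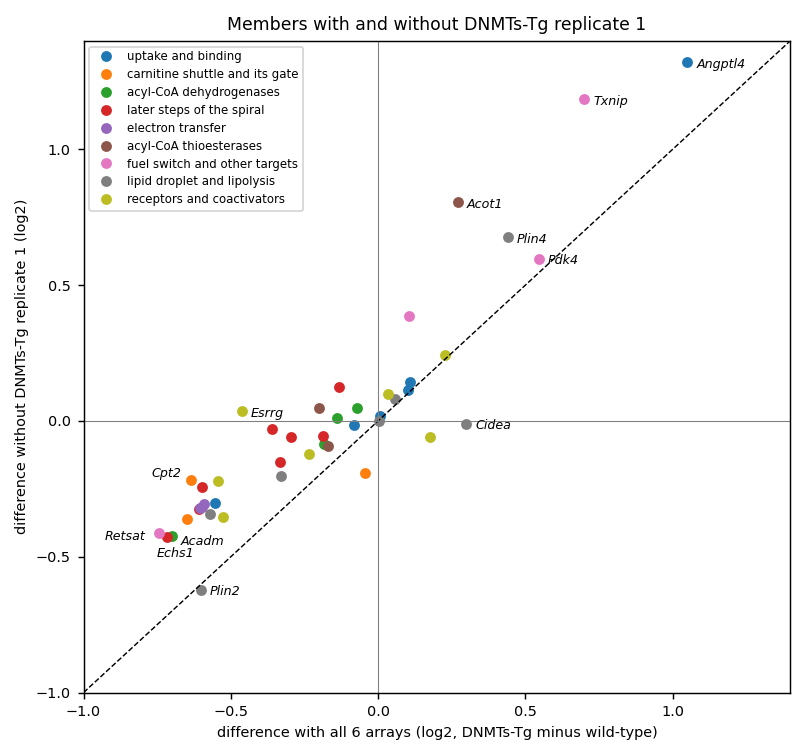
Each point is 1 of the 45 members, coloured by role: the difference in log2 signal (DNMTs-Tg minus wild-type) with all 6 arrays on the x axis and without DNMTs-Tg replicate 1 on the y axis; the dashed line marks equal values. The oxidation genes at the left lie above the line, closer to 0 without replicate 1, while Plin2 stays at -0.62 and Txnip moves from 0.70 to 1.18.

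Genes of the same pathways that are not among the 49 were listed separately: 98 genes in 6 lists, of which 86 were measured. Of the 86, 1 passed with a higher signal, against 2.24% of all genes, and 2 with a lower one, against 3.15%, and 62, or 72.1%, had a difference below 0, against 49.2% of all genes. The median difference over the 86 was -0.17.

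Slc22a5, the plasma-membrane carnitine transporter, fell in DNMTs-Tg hearts. Its log2 signals were 8.03, 8.50 and 8.83 in DNMTs-Tg and 9.51, 9.30 and 9.61 in wild-type hearts, with every DNMTs-Tg array below every wild-type array. The difference was -1.02 ± 0.21 (adjusted p = 0.0394), or 49.4% of wild-type. It did not pass on the mean of its probe sets (-0.74, adjusted p = 0.0814). Plin3, a droplet coat protein found in most cells, fell as well, with signals of 9.31, 9.88 and 9.88 in DNMTs-Tg against 10.73, 10.65 and 10.51 in wild-type hearts. Its groups stood apart by more than either group's range, with a difference of -0.94 ± 0.17 (adjusted p = 0.0289), or 52.1% of wild-type.

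Abhd5, the activator of the lipase Pnpla2, rose, and it was the only one of the 3 that was highest in replicate 1. Its log2 signals were 10.19, 10.09 and 9.99 in DNMTs-Tg and 9.40, 9.31 and 9.54 in wild-type hearts. The difference was 0.68 ± 0.11 (adjusted p = 0.0198), 1.60-fold, larger than the spread of either group. Each of the 3 calls was kept when DNMTs-Tg replicate 1 or 6 was left out and lost when DNMTs-Tg replicate 5 or any wild-type array was left out, with adjusted p from 0.0138 to 0.155 for Slc22a5, 0.00904 to 0.131 for Plin3 and 0.0177 to 0.103 for Abhd5, and unchanged direction in all 6 such fits.

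The arrays do not measure DNA methylation, but the windows around the start sites of these 3 genes can be read for CpG pairs, the sites that DNA methyltransferases modify. The RefSeq windows on GRCm38.p6, 300 bases long and mostly upstream of the start, held 34 CpG pairs for Slc22a5 (chr11:53891654-53891953, minus strand), 9 for Plin3 (chr17:56290462-56290761, minus strand) and 32 for Abhd5 (chr9:122351366-122351665, plus strand). They are shown 5′ to 3′ on the gene's strand, with each CG in capitals.
Slc22a5: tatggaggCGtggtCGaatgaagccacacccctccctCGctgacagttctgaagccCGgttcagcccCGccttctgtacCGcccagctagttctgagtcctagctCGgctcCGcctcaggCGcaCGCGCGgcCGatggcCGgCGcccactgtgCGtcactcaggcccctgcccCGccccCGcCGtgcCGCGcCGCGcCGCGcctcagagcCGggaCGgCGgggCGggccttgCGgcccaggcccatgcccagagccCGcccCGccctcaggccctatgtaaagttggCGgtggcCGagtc
Plin3: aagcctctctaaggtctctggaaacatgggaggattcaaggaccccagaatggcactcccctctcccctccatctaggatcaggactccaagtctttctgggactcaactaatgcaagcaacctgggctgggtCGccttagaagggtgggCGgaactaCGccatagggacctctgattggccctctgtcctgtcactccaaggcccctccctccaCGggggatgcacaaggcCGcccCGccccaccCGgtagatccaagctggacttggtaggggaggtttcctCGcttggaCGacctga
Abhd5: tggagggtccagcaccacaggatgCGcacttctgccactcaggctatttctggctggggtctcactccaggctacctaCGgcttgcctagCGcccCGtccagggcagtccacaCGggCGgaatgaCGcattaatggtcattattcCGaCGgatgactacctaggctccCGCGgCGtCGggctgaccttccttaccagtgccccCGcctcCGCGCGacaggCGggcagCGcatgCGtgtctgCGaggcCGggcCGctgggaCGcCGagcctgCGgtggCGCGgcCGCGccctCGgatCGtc
The gene that rose and one of those that fell thus had CpG-rich windows, and Plin3 a sparse one. Taking the richest window of each gene, the 13 measured members that were lower on every DNMTs-Tg array and had a window held 10 to 34 CpG pairs with a median of 17. The other 24 members with a window had the same median, 17, and a range of 2 to 55. Over 10936 tested genes with a window the median was 21, and over the 342 of them that passed with lower signal it was 20.

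The same windows were searched on both strands for the letters that PPAR and ERR receptors are known to bind. A direct repeat with 1 base between (AGGTCANAGGTCA) was in 0 of 48 windows of 39 members and in 0.0396% of all 32851 windows, and its looser form AGGNCANAGGNCA in 0 and 0.381%. The extended ERR motif TNAAGGTCA was in 0 and 1.28%. The core AGGTCA, which the longer motifs AGGTCANAGGTCA and TNAAGGTCA contain, was in 11 member windows, or 22.9%, against 16.3% of all windows. Of the 10 members with this core, 8 had a difference below 0 and 4 were lower on every DNMTs-Tg array, against 66.7% and 33.3% of the 45 members and 49.2% and 17.6% of all genes. The windows of 3 members with the core that had the smallest p or passed without replicate 1 are shown 5′ to 3′ on the minus strand, with the core or its reverse complement TGACCT in capitals: Plin2 at chr4:86670010-86670309, Acadm at chr3:153944594-153944893 and Echs1 at chr7:140116372-140116671, all on GRCm38.p6.
Plin2: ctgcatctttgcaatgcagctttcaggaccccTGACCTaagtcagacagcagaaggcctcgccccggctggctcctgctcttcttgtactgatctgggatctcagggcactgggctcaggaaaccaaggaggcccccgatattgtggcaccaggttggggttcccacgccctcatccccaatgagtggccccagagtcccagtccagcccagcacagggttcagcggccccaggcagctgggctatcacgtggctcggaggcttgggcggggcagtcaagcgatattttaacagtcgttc
Acadm: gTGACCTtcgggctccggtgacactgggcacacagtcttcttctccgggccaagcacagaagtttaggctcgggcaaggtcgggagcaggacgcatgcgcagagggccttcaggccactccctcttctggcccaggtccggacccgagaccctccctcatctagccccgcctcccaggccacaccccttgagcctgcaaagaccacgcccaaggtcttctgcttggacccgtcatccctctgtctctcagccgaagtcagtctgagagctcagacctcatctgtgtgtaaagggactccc
Echs1: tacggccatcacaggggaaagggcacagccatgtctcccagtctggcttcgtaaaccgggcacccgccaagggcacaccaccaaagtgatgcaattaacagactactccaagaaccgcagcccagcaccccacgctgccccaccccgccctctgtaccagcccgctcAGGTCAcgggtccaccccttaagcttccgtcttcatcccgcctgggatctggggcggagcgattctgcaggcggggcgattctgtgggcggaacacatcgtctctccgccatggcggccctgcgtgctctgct
Each holds the core once: far upstream in Plin2 and Acadm, nearer the start in Echs1. Such matches describe letters in a short window only.

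The list of other mitochondrial oxidation genes, which includes Slc22a5, had 13 of 16 differences below 0 and a median of -0.36. Slc22a5 was the 1 of the 16 that passed, lower in DNMTs-Tg, as did 3.15% of all genes. At an unadjusted p of 0.05, 5 of the 16 passed, or 31.25% against 26% of all genes. Above 0 were Slc25a20 (0.17), Acacb (0.085) and Mcat (0.031). The list is broader than its name, since Acacb makes malonyl-CoA, and Mcat and Mecr (-0.25) act in fatty acid synthesis. Peroxisomes shorten very long chains before mitochondria take over. In the list for peroxisomal oxidation, 12 of 14 genes were below 0 with a median of -0.29 and 0 passing. That list also holds Pmvk (-0.27), a kinase of the mevalonate pathway and not an oxidation gene. At an unadjusted p of 0.05, 4 of the 14 passed, or 28.6% against 26% of all genes. Acad11, an acyl-CoA dehydrogenase, gave log2 signals of 10.39, 10.87 and 11.06 in DNMTs-Tg and 11.71, 11.60 and 11.39 in wild-type hearts, without overlap (difference -0.79, adjusted p = 0.0546). The peroxisomal transporter Abcd2 gave 3.74, 3.99 and 4.59 in DNMTs-Tg against 5.13, 4.92 and 5.75 in wild-type hearts, also without overlap (difference -1.16, adjusted p = 0.0599), and was dim on all 3 DNMTs-Tg arrays. In the fit of all probe sets, where 4.46% passed, another probe set of Abcd2 (-0.998, adjusted p = 0.0444) passed with lower signal. So did a probe set of Scp2 (-0.67, adjusted p = 0.0385).

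Triglyceride synthesis and droplet genes held Plin3 and Abhd5, with 12 of 18 below 0 and a median of -0.13. Lipoprotein and fatty acid supply was the list with most values above wild-type: 6 of 9 were above 0, with a median of 0.28, and 0 passed. It is a mixed list that also holds Apoe, Lrp1, Apobr and the acyl-CoA binding protein gene Dbi. Without DNMTs-Tg replicate 1, 4 of the 9 were below 0 and the median was 0.26. Apoe then went from 0.19 to -0.34 and Lrp1 from 0.74 to 0.26. Of the 9, 4 were higher on every DNMTs-Tg array than on any wild-type array, where 17.3% of all genes were. At an unadjusted p of 0.05, 5 of the 9 passed, 4 higher and Vldlr lower, where 26% of all genes did. Gpihbp1, which carries lipoprotein lipase to the capillary wall, gave log2 signals of 11.58, 11.36 and 11.36 in DNMTs-Tg and 11.23, 11.10 and 10.93 in wild-type hearts, all DNMTs-Tg arrays being higher (difference 0.35, adjusted p = 0.12). Dbi, the acyl-CoA binding protein, differed by 0.28 (adjusted p = 0.11). The lipoprotein receptor gene Vldlr differed the other way, by -0.63 (adjusted p = 0.133).

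Pyruvate dehydrogenase is the entry of glucose carbon that competes with fatty acids. The list of its subunits, the kinases and phosphatases that switch it off and on, and Mpc1 had 10 of 11 genes below 0. The median was -0.35 and 0 passed. At an unadjusted p of 0.05, 5 passed, or 45.5% against 26% of all genes. Pdp1, the phosphatase that switches the complex on, gave log2 signals of 7.47, 7.66 and 8.33 in DNMTs-Tg and 9.09, 8.60 and 8.77 in wild-type hearts, without overlap (difference -0.997, adjusted p = 0.0599). Pdk2, a kinase that switches it off, was lower on every DNMTs-Tg array as well (difference -0.58, adjusted p = 0.0815). Pdhx, a structural subunit, gave 9.78, 10.08 and 9.95 in DNMTs-Tg against 10.36, 10.30 and 10.56 in wild-type hearts (difference -0.47, adjusted p = 0.0706), again with all DNMTs-Tg arrays lower. In the fit of all probe sets, where 4.46% passed, a second Pdp1 probe set passed with lower signal (-0.66, adjusted p = 0.0385). A probe set of the kinase Pdk1 passed there with higher signal (0.91, adjusted p = 0.0225), while the brightest one of Pdk1 differed by 0.042. Receptor partners and coregulators were more mixed, with 12 of 18 below 0, a median of -0.075 and 0 passing, and at an unadjusted p of 0.05, 4 passed, or 22.2% against 26% of all genes. The smallest p there belonged to the retinoid X receptor Rxrg (-0.61, adjusted p = 0.102) and the coactivator Ncoa1 (-0.36, adjusted p = 0.122).

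Markers of heart cell types differed too, most of all in replicate 1. The 8 cardiomyocyte markers were all below 0 with a median difference of -0.18, and 6 of them were lower on every DNMTs-Tg array, where 17.6% of all genes were. The one that passed was the cardiac transcription factor gene Nkx2-5, which fell by 0.59 on the log2 scale (adjusted p = 0.0471): its log2 signals were 8.10, 8.37 and 7.98 in DNMTs-Tg and 8.70, 8.72 and 8.80 in wild-type hearts, lowest in replicate 6. This call was lost whichever array was left out, with adjusted p from 0.0522 to 0.164. Most of the 8 markers lay near the top of the scale, where array signals respond less to RNA. Myl2, at 14.73 in wild-type replicate 4, was the brightest value of that array. Ryr2, a dimmer marker, differed by -0.37 (adjusted p = 0.328), so the median of -0.18 may understate the differences. Relative to the wild-type mean, the median of the 8 was -0.42, -0.10 and -0.050 in replicates 1, 5 and 6. The 7 measured macrophage markers had medians of 1.36, -0.26 and -0.14 there, and were highest in replicate 1 in 7 of 7 genes. Wild-type hearts lay between -0.30 and 0.12. Of the 7, 1 was higher on every DNMTs-Tg array, where 17.3% of all genes were. This was Lgals3, at 9.61, 7.79 and 7.20 in DNMTs-Tg and 6.57, 5.66 and 5.88 in wild-type hearts (difference 2.16, adjusted p = 0.0792). The 6 fibroblast markers had medians of 0.75, 0.062 and 0.079, highest in replicate 1 in 6 of 6 genes, and wild-type hearts lay between -0.097 and 0.10. Of the 6, 2 were higher on every DNMTs-Tg array, Col1a2 (1.01, adjusted p = 0.132) and Pdgfra (0.36, adjusted p = 0.288). The median of the 6 endothelial markers lay between -0.13 and 0.12 on all arrays, while single markers in replicate 1 differed more: Kdr read 9.61 there against a wild-type mean of 10.12, and Gpihbp1 11.58 against 11.09. Their part in the lower oxidation genes was not tested.

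**Figure D5:**
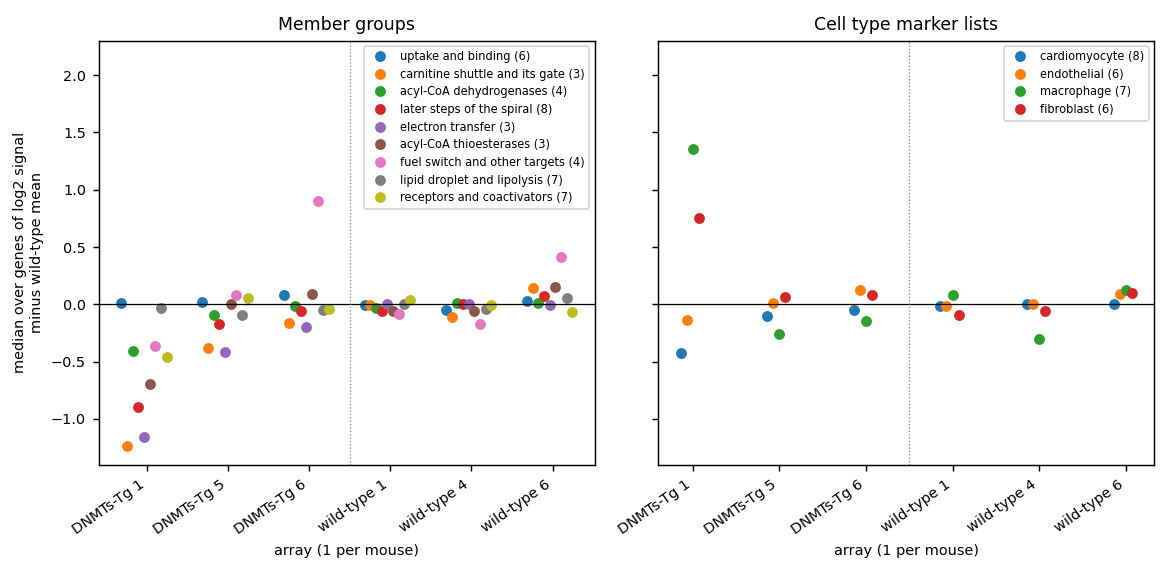
Median over genes of the log2 signal minus the wild-type mean (y axis) on each array (x axis), for the 9 role groups of members at the left and 4 cell type marker lists at the right, with the number of genes in brackets. Replicate 1 has the lowest medians of electron transfer (-1.16) and the carnitine shuttle (-1.23) and the highest of macrophage markers (1.36).

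Fat cells also express many of these genes. Of 7 white adipocyte markers, 2 were measured, Lep and Cidec were dim on all arrays, and Adipoq gave 2.96, 3.54 and 3.37 in DNMTs-Tg and 5.60, 4.00 and 4.99 in wild-type hearts, brighter than the array's 40th percentile on 2 wild-type arrays. Of 4 brown fat markers, Ucp1 was dim on all arrays and Cidea and Elovl3 exceeded the 40th percentile on all 6. Elovl3, at 4.92 to 5.39, lay near the array medians of 5.28 to 5.33. The brightest probe set of the fourth, the deiodinase gene Dio2, gave 8.48, 6.05 and 4.63 in DNMTs-Tg and 3.91, 4.40 and 4.35 in wild-type hearts. That probe set exceeded the 40th percentile on 2 arrays only and was not kept. The kept probe set of Dio2 gave 5.59, 5.01 and 4.78 in DNMTs-Tg and 4.64, 4.98 and 4.40 in wild-type hearts. With it, the median of the 3 measured brown fat markers relative to the wild-type mean was 0.92, 0.29 and -0.070 in DNMTs-Tg replicates 1, 5 and 6. In wild-type hearts this median was -0.14 to 0.068. Of 4 skeletal muscle markers, Myh1 and Myh4 were dim on all arrays. Myh2 (5.20 to 5.71) and Actn3 (4.99 to 5.29) exceeded the 40th percentile on all 6, but lay near the array medians of 5.28 to 5.33. The part of these cell types in the differences was not tested. The Gapdh probe sets at the 3′ end exceeded those at the 5′ end by 0.53 to 0.75 log2 units in DNMTs-Tg and 0.40 to 0.50 in wild-type hearts, a sign of RNA quality that moved with the genotype, while for Actb the ranges overlapped (0.91 to 1.40 and 1.09 to 1.25); the part of RNA quality in the differences was not tested.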

How the data were processed

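Heart RNA of 6 mice was measured on Affymetrix expression arrays of 45101 probe sets. The deposited values are log2 signals, as their range of 2.06 to 14.7 and array medians of 5.28 to 5.33 show, and their software and normalization were not given in the sources used here. They were used as deposited. Probe sets were named through the platform annotation: 34958 had 1 gene symbol, 932 several and 9211 none. The 64 control probe sets were left out, which left 34945 with 1 symbol. A probe set was kept if at least 3 of 6 arrays exceeded their own 40th percentile ("dim" means below it), and a gene was read by its brightest kept probe set. Groups were compared with limma 3.58.1 (lmFit, eBayes with trend) in R 4.3.3, with Benjamini-Hochberg adjustment over 13634 genes and a threshold of 0.05; the script was tested on simulated data. Array values are printed for members past the threshold and the 3 smallest p of each role, and for further genes past the threshold or the 2 smallest p of a list. The members and lists were chosen with earlier results of these data known. Start-site windows are RefSeq's on GRCm38.p6. Alternatives comprised normalization, filter, probe set choice, model, replicate block and arrays left out. Probe sets ending in _x_at or _s_at, such as those of Hadh, Plin5 and Angptl4, can read related transcripts.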

Additional observations from a re-analysis of the deposited data

How the results depend on the processing

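The differences were recomputed with quantile normalization, a common array median, no filter on dim probe sets, a filter at the 60th percentile, probe sets averaged by gene, limma without its trend, robust and with array weights, an adjusted p of 0.10, a replicate block, each array left out in turn, and each probe set on its own. In 951 such comparisons of 56 genes, 857 kept their direction and side of the threshold, 46 came to pass, 16 no longer passed and 32 changed direction. The median over the 45 members, -0.19, ranged from -0.32 (without DNMTs-Tg replicate 6) to -0.058 (without DNMTs-Tg replicate 1) with 1 array left out, and from -0.25 (replicate block) to -0.11 (array weights) under the other settings. Array weights, whose estimation had not converged, called 35.4% of all genes, with 6 members higher and 13 lower, and 34 further genes passed. At an adjusted p of 0.10, 1 member (Plin2) and 10 further genes passed, where 12.1% of all genes did. Leaving out 1 array gave 0 to 2 members higher, 0 to 6 lower and 0 to 14 further genes. The largest of these counts for lower members and further genes came without DNMTs-Tg replicate 6, when 11.8% of all genes passed. Fitted by probe set, where 4.46% of probe sets passed, 8 further genes had a passing one. Testing each probe set with no filter on dim ones was chosen after seeing the data.

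The mean of probe sets turned Cd36 to -0.044, Fabp3 to 0.070 and Cpt1a to 0.12. Quantile normalization turned Lpl to -0.013 and Lipe to -0.034. Array weights turned Fabp4 to -0.039, Acads to 0.081, Eci2 to 0.012, Acot2 to 0.0054, Ucp3 to -0.039 and Lipe to -0.050. With 1 array left out, ranges crossed 0 for Lpl (-0.0065 to 0.018), Cpt1a (-0.19 to 0.047), Acadvl (-0.26 to 0.012), Acads (-0.14 to 0.048), Eci2 (-0.32 to 0.12), Acot1 (-0.071 to 0.81), Acot2 (-0.35 to 0.047), Ucp3 (-0.32 to 0.59), Lipe (-0.051 to 0.054), Cidea (-0.010 to 0.60), Esrra (-0.0033 to 0.099), Esrrg (-0.72 to 0.035) and Ppargc1a (-0.059 to 0.54). The cause was not tested.

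Label numbers 1 and 6 occur in both groups, and deviations of same-numbered arrays correlated at -0.054 and -0.080 over 13634 genes. Those of differently numbered arrays correlated at 0.068 (DNMTs-Tg 1 with wild-type 6) and 0.11 (DNMTs-Tg 6 with wild-type 1). With so few shared numbers, these values cannot tell whether the numbers pair the mice. With the replicate block, 0 members and 0 further genes passed, against 0.00733% of all genes, and Ucp3 turned to -0.14 and Pnpla2 to -0.016. With 3 mice per group, of which 1 stood apart, so few arrays limit how precise each difference can be.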

Other observations

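Some genes of the further lists had large differences that did not pass, with a wide spread among the DNMTs-Tg hearts; they were singled out after their values were seen. The log2 signal of Ces1d, a carboxylesterase that hydrolyses triglyceride, was 5.63, 8.47 and 10.12 in DNMTs-Tg replicates 1, 5 and 6 and 10.26, 10.19 and 9.63 in wild-type hearts (difference -1.95, adjusted p = 0.258). Its lowest value was in replicate 1, and replicate 6 lay among the wild-type arrays. Fitm1, a droplet protein of muscle, gave 8.77, 10.08 and 10.63 in DNMTs-Tg against 10.66, 10.79 and 10.79 in wild-type hearts (difference -0.92, adjusted p = 0.219), in the same order of DNMTs-Tg hearts. Pdp2, the second phosphatase of pyruvate dehydrogenase, gave 6.53, 7.38 and 8.25 in DNMTs-Tg against 8.93, 8.36 and 8.72 in wild-type hearts (difference -1.28, adjusted p = 0.111), without overlap. Klf15, a transcription factor of lipid use in heart, gave 7.90, 8.19 and 9.11 in DNMTs-Tg against 9.57, 9.66 and 8.43 in wild-type hearts (difference -0.82, adjusted p = 0.251), and wild-type replicate 6 lay inside the DNMTs-Tg range. In all 4 genes replicate 1 was the lowest array.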
